A study of Mus musculus with 2 samples.

Results

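Microglia that carried few cytokine transcripts were described in injured mouse spinal cord, 380 cells of 5145 kept cells. A kept barcode had at least 500 genes, at least 1000 UMIs (unique molecular identifiers, each standing for 1 captured transcript) and at most 15% mitochondrial UMIs. A cell was then chosen if it held at least 5 UMIs of P2ry12, Tmem119, Gpr34 and Siglech together, and under 5 UMIs of Tnf, Il12b, Cxcl2 and Tnfsf9 together. It also had to hold under 3 UMIs of the cycling genes Mki67 and Top2a, and under 3 of the border macrophage genes Lyve1, Cd163, Mgl2 and Fcna. The rule found 184 of 2975 kept cells in the HDAC3 inhibitor library and 196 of 2170 in the vehicle library. These cells are called cytokine-low microglia below, and microglia with 5 or more UMIs of the cytokine genes are called cytokine-rich.

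The study compared 1 library of cells from HDAC3 inhibitor-treated (HDAC3i) cord with 1 library from vehicle-treated cord, both taken 5 days after injury and made with the 10x Genomics 3' version 3 kit. HDAC3 is a histone deacetylase that works in the NCoR and SMRT corepressor complexes. The labels give no compound, dose, strain, genotype, sex, age or kind of injury, and no number of animals behind a library. With 1 library per group there is no replicate check and no test, so every comparison below is between these libraries and not between treatments. Levels are counts per 1000000 UMIs (CPM) of the summed UMIs of a state, pairs of values are in the order HDAC3 inhibitor, vehicle, and 95% intervals cover counting error only. A level of a gene in CPM is not divided by gene length, so levels are compared between cells and not between genes. The libraries shared 10 cell barcodes, and 1 barcode of a cytokine-low microglial cell in 1 library also stood in the other, where it was not chosen.

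Microglia are the resident macrophages of the central nervous system and live on signals through the CSF1 receptor and TGF-beta. In undisturbed tissue they are known for a set of surface genes, among them the purinergic receptor P2ry12, Tmem119, the lipid-sensing receptor Gpr34 and the lectin Siglech. After injury they are known to lose part of this homeostatic set, and some take on genes of debris uptake and lipid handling such as Apoe, Spp1 and Gpnmb, while others make cytokines and chemokines.

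The sequences around the starts of P2ry12 and Siglech are shown because these 2 markers of the rule came apart in some of the chosen cells, as described below. Each runs from 250 bases before to 50 bases after the start of the gene, 5′ to 3′ on the gene's strand, from RefSeq on GRCm38.p6. The RefSeq starts differ from those of GENCODE M21, where P2ry12 on the minus strand begins at 59262871, so that its window lies wholly upstream of the GENCODE gene, and Siglech begins at 55768178. Of the 4 markers, these 2 were in the promoter table used. Capitals mark GAGGAA or its reverse complement TTCCTC, the core of the motif of PU.1, the myeloid lineage factor encoded by Spi1. On either strand this motif stood in 28.3% of 32851 promoters of the same length. The P2ry12 window (chr3:59262936-59263235, minus strand) held 0 matches and the Siglech window (chr7:55767934-55768233, plus strand) held 1, which says nothing of binding.
P2ry12: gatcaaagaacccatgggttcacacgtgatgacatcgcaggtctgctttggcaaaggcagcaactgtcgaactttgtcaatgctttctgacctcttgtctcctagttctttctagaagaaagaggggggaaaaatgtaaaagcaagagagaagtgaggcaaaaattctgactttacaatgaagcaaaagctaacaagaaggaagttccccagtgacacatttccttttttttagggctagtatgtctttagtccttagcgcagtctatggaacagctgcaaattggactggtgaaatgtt
Siglech: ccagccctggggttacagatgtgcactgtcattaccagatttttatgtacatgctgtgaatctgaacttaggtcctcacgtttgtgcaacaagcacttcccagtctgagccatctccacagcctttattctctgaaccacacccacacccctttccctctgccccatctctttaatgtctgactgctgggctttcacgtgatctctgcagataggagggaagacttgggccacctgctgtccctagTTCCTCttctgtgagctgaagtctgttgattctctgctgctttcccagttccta

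The rule fixed the levels of its own genes, and they are given as a description. P2ry12 stood at 388 and 478 CPM, Tmem119 at 391 and 403, Gpr34 at 347 and 435 and Siglech at 326 and 357. The summed marker count had a median of 12 and 17.5 UMIs per cell and reached 61 and 69. At the edge of the bound, 18 and 19 chosen cells held exactly 5 marker UMIs, while 21 and 15 cells with 4 were left out. Of the cytokine genes Tnf was the one still seen often, at 90.1 and 82.4 CPM, and Il12b had 0 UMIs in both libraries, which leaves room for up to 1.46 and 1.25 CPM. Exactly 88 and 89 cells held no UMI of the 4 cytokine genes, 20 and 24 held 4 UMIs, and 15 and 12 cells at 5 UMIs were left out.

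Summed over the chosen cells, microglial genes that the rule did not use were present, some of them in few cells. Sall1, the transcription factor that keeps microglial identity, stood at 39.0 and 47.0 CPM. In macrophages chosen by at least 5 Gpnmb UMIs and under 2 marker UMIs (387 and 163 cells), it stood at 0.718 and 0.386 CPM, the latter under the level that 3 UMIs give. Fcrls, an Fc receptor-like gene of mouse microglia, stood at 1118 and 1158 CPM against 220 and 155 in those macrophages. Olfml3 (568 and 594 CPM) and the fractalkine receptor Cx3cr1 (24.4 and 35.4 CPM) were also above the macrophages, at 91.4 and 78.7 and at 2.26 and 6.94 CPM. All 4 of these genes were higher in the microglia than in the macrophages in both libraries. The 2 groups were chosen by high and low UMIs of the 4 markers, so genes that go with the markers differ by choice. This contrast is therefore a description.

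**Figure D1:**
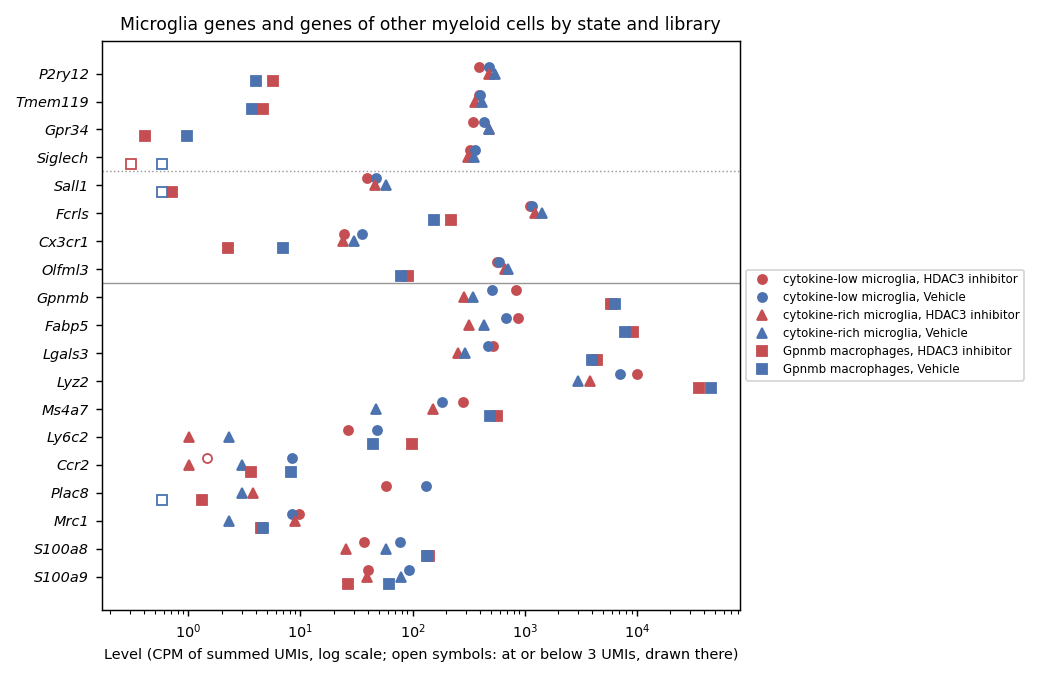
Level of 19 genes on a log axis, in CPM of the summed UMIs of each state, for cytokine-low microglia (circles), cytokine-rich microglia (triangles) and Gpnmb macrophages (squares) of the HDAC3 inhibitor library (red) and the vehicle library (blue); open symbols are at or below the level of 3 UMIs. The genes above the dotted line chose the cells, and the next 4, from Sall1 to Olfml3, did not. In both libraries these 4 are higher in both microglial states than in the macrophages. The macrophages were chosen by few marker UMIs, so genes that go with the markers differ by choice.

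Most of a small group of chosen cells went against the label. In 6 cells of the HDAC3 inhibitor library and 8 of the vehicle library, P2ry12, Tmem119 and Gpr34 together gave under 2 UMIs, so that Siglech alone carried them over the bound. Siglech is also known from plasmacytoid dendritic cells. In these cells it stood at 1116 and 1217 CPM, against 307 and 322 in the other chosen cells. The complement gene C1qa had 60 UMIs in 1 of the 6 cells of the HDAC3 inhibitor library and 0 in the other 5, and 1 UMI in all in the 8 vehicle cells, while the other chosen cells stood at 7844 and 8471 CPM. The same 1 cell held all 4 Csf1r UMIs of the 6 cells and no Ly6d, and it held 187 UMIs of 3000 of the homeostatic list described below.

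The other 5 and 8 Siglech cells held genes that were far lower or at 0 in the other chosen cells. The values below are over all 6 and 8. Ly6d, a lymphoid surface protein, reached 4710 and 3526 CPM, against 0 and 29.0 in the other chosen cells, and 5 of 6 and 8 of 8 of them held at least 3 Ly6d UMIs. Ccr9, a chemokine receptor, stood at 785 and 493 CPM, and Spib, an ETS-family transcription factor of lymphoid and plasmacytoid dendritic cells, at 434 and 304. Bst2, a membrane protein induced by interferon that the other chosen cells held too, stood at 5000 and 5058 CPM against 870 and 731. Plac8 stood at 2025 and 3033 CPM against 10.5 and 13.4, and Cox6a2, a cytochrome c oxidase subunit, at 1673 and 1648 against 33.9 and 59.4. These genes were picked after their values were seen, and no marker list made for such cells had been drawn up. The cells are therefore named here only by their leading genes. A dendritic list (6 genes) that had been drawn up summed to 6.33 and 18.3 CPM over all chosen cells. That sum is over far more cells than the values above, so it does not give the level in the Siglech cells. The Siglech cells made up 3.26% (95% interval 1.21 to 6.96) and 4.08% (1.78 to 7.88) of the chosen cells, and 0 and 1 of the cytokine-rich microglia.

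A larger group leaned toward the genes of lesion macrophages. At least 5 UMIs of Gpnmb, a membrane glycoprotein of lipid-laden and phagocytic macrophages, were held by 26 of 184 cells (14.1%, 9.44 to 20.02) and 19 of 196 (9.69%, 5.94 to 14.7). These cells were deeper, with a median of 24852 and 32183 UMIs against 7748 and 9201 in the rest. In them Spp1, the secreted matrix protein osteopontin, stood at 42498 and 53314 CPM, against 2193 and 2459 in the rest of the chosen cells. The Gpnmb macrophages held Spp1 at 42147 and 33969 CPM, near the former value in the HDAC3 inhibitor library and below it in the vehicle library. P2ry12 was down at 37.0 and 54.6 CPM against 550 and 614. Csf1r stood at 389 and 517 CPM against 1341 and 1580, and Cst3, which encodes the secreted protease inhibitor cystatin C, at 3218 and 4274 against 17799 and 18426.

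The Gpnmb-holding cells were not the same as the macrophages in every gene. Tmem119 stood at 211 and 128 CPM in them, against 4.61 and 3.66 in the macrophages, and this gene was part of the rule that chose them. Fcrls, which was not, stood at 1148 and 1476 CPM, as high as the 1105 and 1055 of the other chosen cells and above the 220 and 155 of the macrophages. In the other direction Fabp5, a fatty acid binding protein, stood at 2312 and 2371 CPM against 9299 and 7947 in the macrophages, and Gpnmb itself at 2616 and 2061 against 5943 and 6390. In cells of this depth, 5 marker UMIs are a small share of the total, and transcripts of 2 cells in 1 droplet would give a mixture too. Scrublet, a doublet caller, called 17 and 6 doublets among all kept cells and 2 and 1 among the chosen cells. Whether the Gpnmb-holding cells are mixtures was not tested.

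These few cells held 31.6% and 24.4% of all UMIs of the chosen cells and a larger share of some genes. They carried 89.9% and 87.5% of all Spp1 UMIs of the chosen cells, 84.5% and 73.1% of those of the lysozyme gene Lyz2, and 59.9% and 50.02% of those of Apoe, the main lipid carrier made by microglia. By contrast they carried 3.01% and 2.79% of P2ry12 UMIs. After each cell was thinned to 3000 UMIs, which left out 12 and 15 shallower cells, Spp1 had a median of 0 in both libraries and a maximum of 374 and 291 UMIs. Apoe had a median of 30.5 and 45 UMIs, a lower quartile of 6 and 9 and a maximum of 480 in both. The variance over the mean was 173 for Spp1, 137 for Apoe and 65.1 for Lyz2, averaged over the libraries, against a median of 1.35 over 687 genes with a mean of at least 0.5 UMI. A summed level of these genes therefore describes few of the cells.

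Other genes with wide spread were of different kinds. Ccl4, a chemokine that draws lymphocytes and monocytes, had a median of 1 UMI in both libraries, a ninetieth percentile of 21.7 and 27 and a maximum of 90 and 81. Cst3 was spread over nearly all cells, with quartiles of 19.8 and 76.3 UMIs in the HDAC3 inhibitor library and 24 and 79 in the vehicle library. Ctsd, the lysosomal protease cathepsin D, and the ferritin genes Fth1 and Ftl1 were also among the 12 genes of widest spread. In every thinned cell of both libraries Fth1 had at least 1 UMI.

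Across cells, the homeostatic list without the rule's genes (26 genes) had a median of 39.5 UMIs of 3000 in the Gpnmb-holding cells of the HDAC3 inhibitor library and 45 in those of the vehicle library. It had a median of 7 and 6.5 in the cells chosen by Siglech alone, and of 115 and 121 in the remaining 140 and 154 cells. The phagocytic or disease-associated list had medians of 543 and 597 in the Gpnmb-holding cells, 28.5 and 25.5 in the Siglech cells and 87.5 and 111 in the remaining cells. Over all thinned cells the lists had a Pearson correlation of -0.41 and -0.28. Among the remaining cells it was -0.18 and -0.12, and both counts come from the same 3000 UMIs of a cell. By rank (Spearman) the correlation was -0.34 and -0.073 over all thinned cells, and -0.18 and 0.026 among the remaining cells. An inverse relation by rank was thus seen in the HDAC3 inhibitor library and hardly in the vehicle library.

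**Figure D2:**
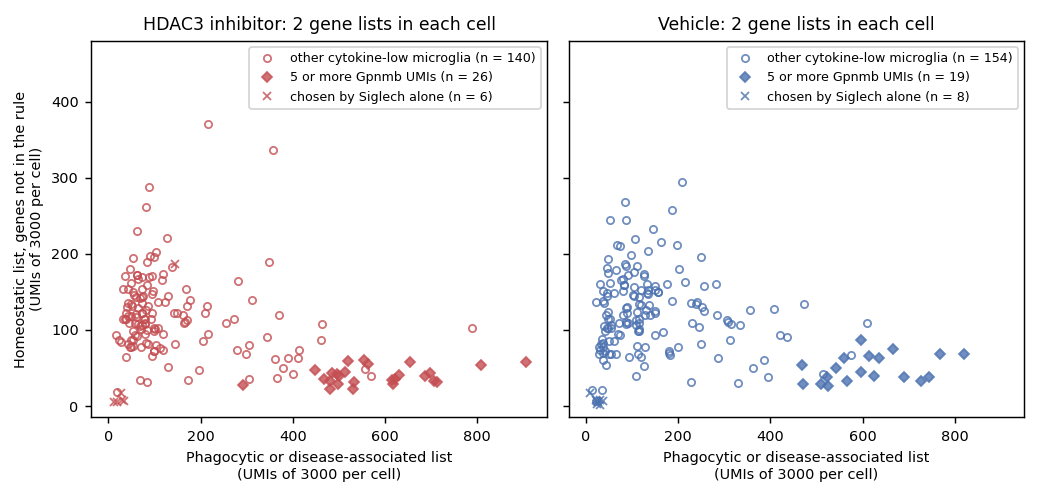
Each point is 1 cytokine-low microglial cell thinned to 3000 UMIs, with its UMIs of the phagocytic or disease-associated list on the x axis and of the homeostatic list (without the genes of the rule) on the y axis, by library. Cells with 5 or more Gpnmb UMIs (diamonds) lie at the lower right, with medians of 543 and 597 UMIs on the x axis, and the cells chosen by Siglech alone (crosses) lie at the lower left except 1 cell of the HDAC3 inhibitor library.

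Transcripts of other cell types were present at levels that differed between the libraries. The neutrophil list (9 genes) summed to 90.1 and 196 CPM, and at least 1 UMI of it was seen in 108 of 184 and 172 of 196 cells. In the cytokine-rich microglia it summed to 80.2 and 164 CPM and in the Gpnmb macrophages to 209 and 248, higher in the vehicle library in all 3 states. The erythroid list summed to 413 and 2271 CPM, with 94.2% and 37.6% of the UMIs in 1 cell each. The fibroblast list summed to 508 and 179 CPM with 99.7% and 98.8% of the UMIs in 1 cell each, and the mural list to 102 and 7.49 CPM with 92.9% in 1 cell of the HDAC3 inhibitor library. The oligodendrocyte list summed to 939 and 759 CPM, and 33 and 56 cells held at least 5 UMIs of it. The monocyte list summed to 352 and 362 CPM. The lesion macrophage list (8 genes, Gpnmb among them) summed to 2656 and 1947 CPM (1.36, 1.31 to 1.42). In the HDAC3 inhibitor library 5 of its 5 measured genes were higher, against 44.3% of all measured genes. Its median log2 ratio of 0.46 was above 0 in all 17 alternatives. In the cytokine-rich microglia 2 of 6 were higher, with a median of -0.23 and a ratio of the sums of 0.928 (0.891 to 0.967). Of the T and NK list 5 of 7 genes were at 0. The part of these transcripts in the differences between the libraries was tried only by leaving cells out, as given below.

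Set beside the cytokine-rich microglia (278 and 267 cells), the cytokine-low cells differed first in the genes that define the bound and in genes of the same response. Of 5448 genes with at least 100 UMIs in each library, both states summed, 55 (1.01%) were at least 2-fold higher in the cytokine-rich cells in both libraries, and 29 (0.532%) were at least 2-fold lower. The bound fixed this comparison, so it is a description. Cxcl2, a neutrophil-attracting chemokine of the bound, stood at 12.7 and 13.3 CPM in the cytokine-low cells and at 1318 and 1091 in the cytokine-rich cells. Among genes outside the rule, Acod1, which makes itaconate in activated macrophages, stood at 1.46 and 3.74 CPM against 34.1 and 38.3. The interferon-inducible chemokine Cxcl10 stood at 147 and 123 CPM against 727 and 654, and the chemokine Ccl3 at 736 and 994 against 3204 and 3450. Il1rn, the interleukin-1 receptor antagonist, stood at 12.2 and 14.6 CPM against 51.7 and 67.2. Dusp2, a phosphatase of MAP kinases, Slc7a11, a cystine transporter, and Ch25h, which makes 25-hydroxycholesterol, were likewise 3.48- to 6.72-fold higher in the cytokine-rich cells.

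By list, 8 of 10 measured genes of the inflammatory cytokine list and 5 of 11 of the chemokine list outside the rule were at least 2-fold higher in the cytokine-rich cells in both libraries. Over all 5448 genes, 27.3% were higher and 39.4% lower in the cytokine-rich cells in both libraries. Of the homeostatic genes 17 of 25 were higher in the cytokine-rich cells in both libraries, 3 lower, and 0 differed 2-fold in both, with a median log2 ratio of 0.15 and 0.21. The immediate-early list, genes such as Fos and Egr1 that answer within minutes, had 15 of 18 genes higher in the cytokine-rich cells, with a median log2 ratio of 0.49 and 0.29 against -0.03 and -0.05 over all measured genes. The genes at least 2-fold higher in the cytokine-low cells came largely from few cells. Ly6d stood at 111 and 168 CPM against 0 and 0.229, and Plac8 at 58.0 and 133 against 3.76 and 2.98, both carried by the Siglech cells above. The collagen gene Col1a1 stood at 234 and 49.5 CPM with 100% and 99.2% of its UMIs in 1 cell each, and S100a6 at 189 and 360 CPM with 79.4% and 88.9% in 1 cell each.

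The cytokine bound cut through a gradient. Over 6 bins of the summed cytokine UMIs, from 0 to 100 and more, Ccl4 went from 633 to 9815 CPM in the HDAC3 inhibitor library and from 891 to 9298 CPM in the vehicle library. At 2 to 4 UMIs, inside the bound, it stood at 2554 and 3127 CPM, and at 5 to 19 UMIs, outside it, at 4819 and 4719. Nfkbia, the inhibitor of NF-kappa-B that this factor itself induces, went from 284 and 338 CPM at 0 UMIs to 822 and 790 at 2 to 4 UMIs and 2087 and 1774 in the highest bin. Cd83, a surface protein of activated antigen-presenting cells, stood at 337 and 384 CPM at 0 UMIs and at 723 and 923 at 2 to 4 UMIs. Within the bound, Apoe went from 52581 over 36285 to 24449 CPM in the HDAC3 inhibitor library, while in the vehicle library it went from 41118 up to 49939 and then to 33390 CPM. Depth moved with the bins: the median was 7572 and 7808 UMIs per cell at 0 cytokine UMIs and 17898 and 22812 in the highest bin. The levels were therefore compared again with each cell thinned to 3000 UMIs. Then 54 genes were at least 2-fold higher and 28 at least 2-fold lower in the cytokine-rich cells in both libraries. The states were still those set on unthinned UMIs, so thinning does not take depth out of the choice of cells. With bounds per 10000 UMIs, 9 genes instead of 29 were at least 2-fold lower in the cytokine-rich cells in both libraries. The count of genes at least 2-fold higher changed less under these bounds.

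**Figure D3:**
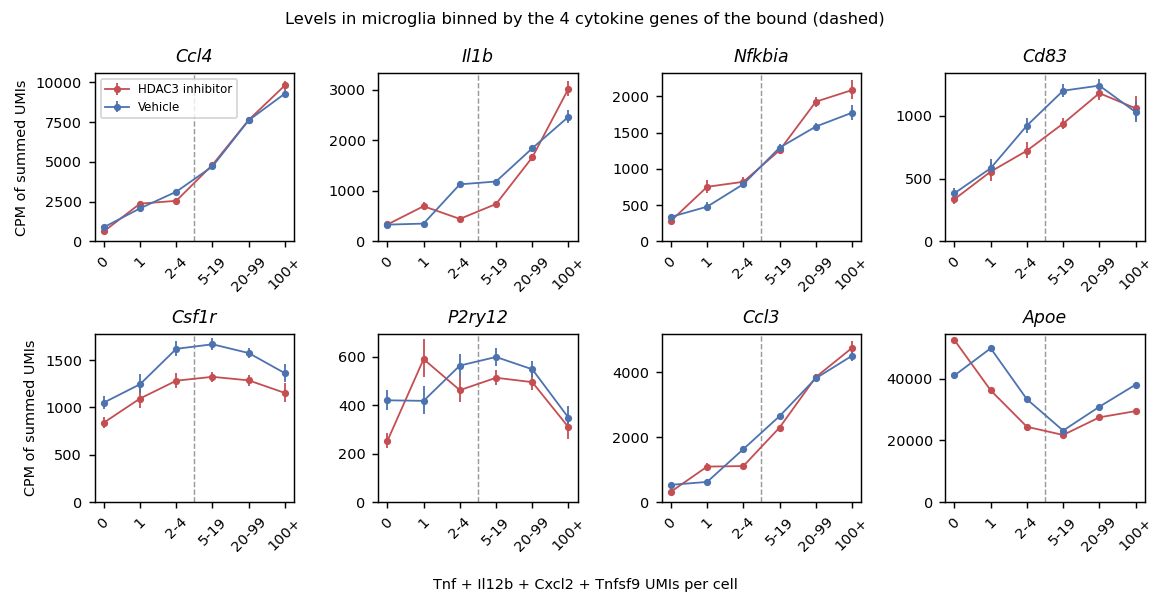
Level of 8 genes, in CPM of summed UMIs with exact Poisson 95% intervals, in microglia of both states binned by their UMIs of Tnf, Il12b, Cxcl2 and Tnfsf9, for the HDAC3 inhibitor library (red) and the vehicle library (blue). The dashed line is the bound of 5 UMIs; Ccl4 and Nfkbia are higher in each bin than in the one at 0 UMIs, and Csf1r is lower in the HDAC3 inhibitor library in all 6 bins.

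Against the Gpnmb macrophages, 733 of 5857 measured genes (12.5%) were at least 2-fold higher in the cytokine-low microglia in both libraries and 260 (4.44%) at least 2-fold lower. Both groups were chosen by their UMIs of the 4 marker genes, so genes that go with these markers differ by choice. This comparison is therefore a description too. Of the homeostatic list 19 of 21 measured genes outside the rule were at least 2-fold higher, and of the immediate-early list 11 of 17. The complement genes C1qa, C1qb and C1qc, which encode the chains of C1q, stood at 7688 and 8135, 7830 and 7691, and 4826 and 5357 CPM. In the macrophages they stood at 2120 and 1644, 3826 and 3466, and 2015 and 1772 CPM. Apoe was lower in the microglia, at 39816 and 39783 CPM against 61759 and 76231. Of the lysosome list 2 of 24 genes were at least 2-fold higher and 5 at least 2-fold lower.

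Between the libraries, the cytokine-low microglia made up 6.18% (95% interval 5.35 to 7.11) of kept cells in the HDAC3 inhibitor library and 9.03% (7.86 to 10.3) in the vehicle library, a ratio of 0.685 (0.557 to 0.842). The cytokine-rich microglia also had a lower share, 9.34% and 12.3%, and the Gpnmb macrophages a higher one, 13.01% and 7.51%. Within all microglia that met the other bounds, 39.8% (35.3 to 44.5) of 462 and 42.3% (37.8 to 47.0) of 463 were cytokine-low, which overlap within counting error. Leaving out cells with 5 or more UMIs of other types' markers took away more vehicle cells, leaving 96 and 64, and turned the ratio of shares to 1.09 (0.789 to 1.53). This cut was made only among the chosen cells, and the shares were still of all kept cells. At least 5 UMIs of the neutrophil list were held by 3 and 29 chosen cells, of the oligodendrocyte list by 33 and 56 and of the monocyte list by 25 and 28. A difference in the cord and a difference in cell recovery cannot be told apart.

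Of 4814 genes measured (100 or more UMIs, both libraries summed), 74 (1.54%) were at least 1.5-fold higher in the HDAC3 inhibitor library and 135 (2.80%) at least 1.5-fold lower. The median log2 ratio was -0.04, and 44.3% of genes were higher and 55.7% lower. With ratios centred on the median gene, 97 and 106 genes passed 1.5-fold. In the cytokine-rich microglia 104 of 6395 genes (1.63%) were at least 1.5-fold higher and 116 (1.81%) lower, and 45.5% were above and 54.5% below a ratio of 1, against which the counts of lists in those cells are to be read. Hdac3 itself had 26 and 47 UMIs, or 12.7 and 19.6 CPM, with a ratio of 0.648 whose interval ran from 0.385 to 1.07. An inhibitor acts on the enzyme, so its mRNA does not check the labels.

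Klf2 (ENSMUSG00000055148, mm10 chromosome 8, 72319033 to 72321656, plus strand), a zinc-finger transcription factor known to hold back inflammatory activation of myeloid cells, was counted with the most UMIs among the 12 lowest ratios. It stood at 593 CPM (560 to 627) in the HDAC3 inhibitor library and 1016 CPM (976 to 1057) in the vehicle library, a ratio of 0.583 (0.544 to 0.625). No single cell held more than 7.15% of its UMIs. Without the Gpnmb-holding cells and the Siglech cells the levels were 730 and 1243 CPM and the ratio 0.587, and it was lower in all 16 alternatives, with log2 ratios of -0.53 or lower. Its level in the cytokine-rich microglia was 414 and 506 CPM, a ratio of 0.818. The difference between these ratios was not tested.

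Several other genes low in the HDAC3 inhibitor library were spread over many cells and kept their direction in all 16 alternatives. Lag3, an inhibitory receptor of the immunoglobulin family, stood at 132 and 223 CPM (ratio 0.594, 0.511 to 0.689), and at 163 and 287 CPM in the cytokine-rich cells. Cited2, a coregulator that binds CBP and p300, stood at 78.4 and 141 CPM (0.558, 0.459 to 0.675). The chemokine gene Ccl9 stood at 76.5 and 141 CPM (0.544), and Irf9, the DNA-binding part of the complex that answers type I interferon, at 29.7 and 56.6 CPM (0.525). Nrip1, a corepressor of nuclear receptors, stood at 61.4 and 102 CPM (0.5996). Fbrs (42.9 and 71.98 CPM) and the fibrillar collagen gene Col27a1 (41.9 and 73.2 CPM) had ratios of 0.595 and 0.572. In the cytokine-rich cells the ratio of Col27a1 was 0.588, while those of Irf9 (0.957, 0.762 to 1.20), Nrip1 (0.951, 0.807 to 1.12) and Ccl9 (0.935, 0.839 to 1.04) had intervals that include 1.

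The other 4 of the low genes rested partly on few cells or turned. S100a10, the partner of annexin A2, stood at 43.3 and 128 CPM, but 80.1% of its vehicle UMIs came from 1 cell, and without the top cells its ratio was 1.06. Cytip, a cytohesin-binding protein of lymphoid and dendritic cells, stood at 26.8 and 62.0 CPM, and 38.2% and 68.5% of its UMIs lay in the Siglech cells. Without these and the Gpnmb-holding cells it stood at 5.16 and 19.7 CPM, a ratio of 0.261 (0.0978 to 0.599), and it was lower in all 16 alternatives. Cox6a2 stood at 72.6 and 122 CPM, with 54.4% and 53.4% of its UMIs in those cells. Sox4, a transcription factor, stood at 35.1 and 59.5 CPM, and its log2 ratio was 0.02 after thinning to 3000 UMIs.

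Of the 12 genes with the highest ratios, Wfdc17, a small secreted protein of activated macrophages, and Gpnmb differed most in UMIs. Wfdc17 stood at 343 and 144 CPM, a ratio of 2.39 (2.10 to 2.73), and 82.0% and 76.2% of its UMIs lay in the Gpnmb-holding cells. Without these and the Siglech cells it stood at 92.9 and 47.0 CPM, a ratio of 1.97 (1.48 to 2.64). Its sequence is close to that of a neighbouring family member, so its level is uncertain. Gpnmb (chromosome 6, 49036546 to 49070929, plus strand) stood at 845 and 516 CPM, a ratio of 1.64 (1.52 to 1.76). The shares of Gpnmb-holding cells overlap within counting error, and without them and the Siglech cells Gpnmb was at 28.7 and 16.8 CPM, low by the choice of cells, with a ratio of 1.71 (1.03 to 2.86). In the cytokine-rich microglia Wfdc17 had a ratio of 1.10 and Gpnmb one of 0.838.

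Gdf15, a stress-induced cytokine of the TGF-beta family, stood at 118 and 69.5 CPM (1.70, 1.39 to 2.09), and at 95.1 and 33.1 CPM (2.87, 2.09 to 3.995) without the Gpnmb-holding and Siglech cells. Ccl2, the chemokine that draws monocytes through Ccr2, stood at 74.0 and 41.2 CPM (1.80, 1.39 to 2.34), and at 102 and 54.6 without those cells. Smpdl3a, a phosphodiesterase related to acid sphingomyelinase, stood at 104 and 60.3 CPM (1.73), and Hilpda, a lipid droplet protein induced by low oxygen, at 63.8 and 39.5 CPM (1.61). Fam213b (52.6 and 32.9 CPM) and the Golgi protein gene Golgb1 (76.5 and 48.3 CPM) had ratios of 1.60 and 1.58. The direction of these 6 genes and of Wfdc17 and Gpnmb was the same in all 16 alternatives.

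The other 4 of the high genes turned under at least 1 alternative. Ptgs2, the inducible cyclooxygenase, stood at 52.6 and 28.3 CPM with 34.3% of its UMIs in 1 cell of the HDAC3 inhibitor library, and its log2 ratio was -0.56 with a marker bound of 10 UMIs. Thbs1, which encodes thrombospondin 1, stood at 158 and 80.7 CPM, with 72.3% and 67.5% of its UMIs in the Gpnmb-holding cells, and its log2 ratio was -0.38 with that bound. Ckap4 stood at 58.9 and 36.2 CPM with 34.7% in 1 cell. Csrp2 stood at 61.9 and 20.8 CPM with 96.1% and 82.0% in 1 cell each, and its ratio was 0.650 without those cells.

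**Figure D4:**
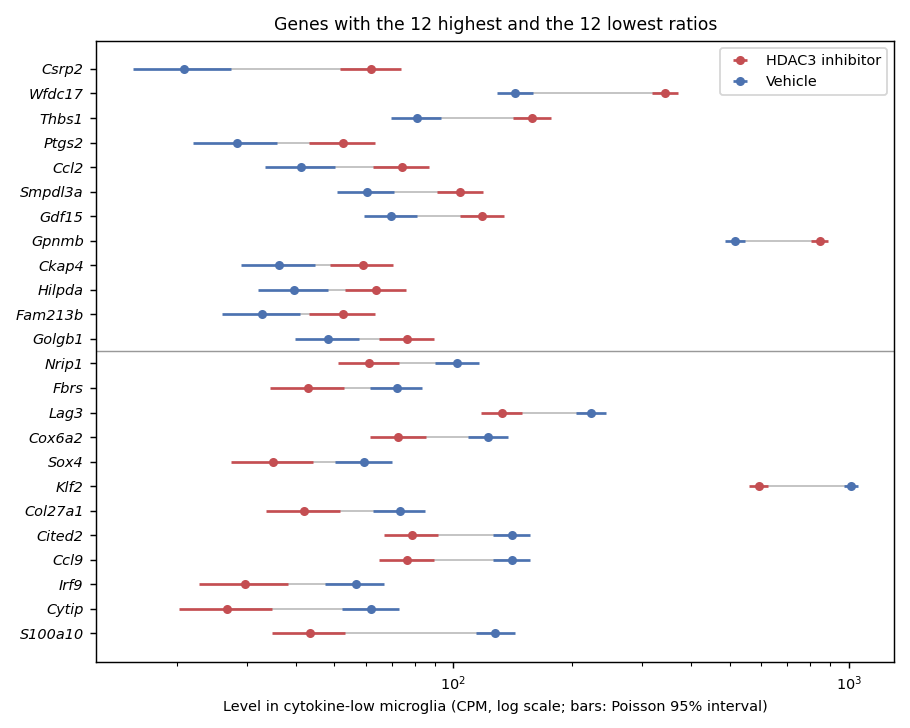
Level in cytokine-low microglia, in CPM on a log axis with exact Poisson 95% intervals, of the 12 genes with the highest (upper part) and the 12 with the lowest ratio of the HDAC3 inhibitor library (red) over the vehicle library (blue). Klf2 is at 593 and 1016 CPM; Csrp2 and S100a10 rest on 1 cell each.

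The counts of list genes below are to be read against all measured genes, of which 44.3% were higher and 55.7% lower. By gene list, the homeostatic genes were mostly lower in the HDAC3 inhibitor library. Of 29 measured genes 26 were lower and 3 higher, with a median log2 ratio of -0.16 against -0.04 over all measured genes, and 1 passed 1.5-fold. Cst3 stood at 13197 and 14975 CPM (ratio 0.881, 0.867 to 0.895) and Trem2, the lipid and debris receptor, at 2266 and 2362 (0.959, 0.923 to 0.997). Without the Gpnmb-holding and Siglech cells the median was -0.06 and 9 of 29 were higher, and over all 3910 genes then measured the median was -0.02. In the cytokine-rich microglia 28 of 29 were lower, with a median of -0.19.

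Lineage transcription factors had a median of -0.19, with 14 of 18 lower. Cebpb, a factor of inflammatory gene activation, stood at 1148 and 1278 CPM (0.898), and Spi1, which encodes PU.1, at 414 and 445 (0.932, 0.851 to 1.02). Receptors for CSF1 and cytokines had 12 of 16 lower and a median of -0.24. Csf1r, the receptor that microglia need for survival, stood at 1040 and 1321 CPM (0.788, 0.745 to 0.832), and it was lower in all 16 alternatives, by 0.21 to 0.46 on the log2 scale. The TGF-beta list, the pathway that maintains the microglial programme, had 8 of 9 lower and a median of -0.13, with Tgfbr1 at 368 and 394 CPM (0.932, 0.846 to 1.03).

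The phagocytic or disease-associated genes were mostly slightly higher, 15 of 21 with a median of 0.06, and 1 of them, Gpnmb, passed 1.5-fold. The lesion macrophage list was higher in the same library, as given above, and its part in these values was not tested beyond leaving out the Gpnmb-holding cells. Apoe stood at 39816 and 39783 CPM (1.001, 0.992 to 1.01) and Spp1 at 14913 and 14862 (1.0035, 0.988 to 1.02). Lyz2 stood at 10089 and 7134 CPM (1.41, 1.39 to 1.44). These intervals leave out the wide spread of the 3 genes among cells. Over the 16 alternatives the log2 ratio ran from -0.36 to 0.41 for Apoe, from -0.43 to 2.64 for Spp1 and from -0.18 to 1.91 for Lyz2. The ratios of these genes therefore depended on which cells were counted. Without the Gpnmb-holding and Siglech cells the ratios were 0.870 for Apoe, 0.875 for Spp1 and 0.883 for Lyz2, and the list had 8 of 19 higher. Of the same list 20 of 23 were lower in the cytokine-rich microglia, with a median of -0.26. Lysosomal genes had a median of -0.01 and 10 of 24 higher. Of the phagocytic receptors 9 of 19 were higher, and 2, the scavenger receptor Msr1 (47.2 and 25.4 CPM) and Cd300lf (49.2 and 30.8 CPM), passed 1.5-fold. The genes past 1.5-fold in this and the next paragraphs that are not among the 4 of a list with the most UMIs were chosen after their values were seen.

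Chemokines had a median of -0.29, with 7 of 11 lower. This median was above 0 in 2 of 17 alternatives, at up to 0.25. Ccl4 stood at 1624 and 2038 CPM (0.797, 0.762 to 0.833) and Ccl3 at 736 and 994 (0.741, 0.694 to 0.791), while Ccl2 was higher. Ccl5 stood at 58.4 and 156 CPM, with 72% of the vehicle UMIs in 1 cell. Of the inflammatory cytokine list 4 of 10 genes were higher and 6 lower, with a median of -0.06, and 1, Ptgs2, was at least 1.5-fold higher and 0 at least 1.5-fold lower. The median of this list was 0.37 in 1 of 17 alternatives and below 0 in the other 16. Il1b, the precursor of interleukin-1 beta, stood at 441 and 658 CPM (0.670, 0.616 to 0.727) and Il1a at 364 and 490 (0.742, 0.676 to 0.814). By cytokine bin Il1b stood at 335 and 332 CPM at 0 UMIs, 696 and 352 at 1 UMI and 445 and 1128 at 2 to 4 UMIs. Il1a stood at 143 and 220, 554 and 399, and 559 and 798 CPM in these bins. The log2 ratio of Il1b was above 0, at 0.37, in 1 of 16 alternatives. Nfkbia stood at 558 and 550 CPM (1.01, 0.937 to 1.10). Since the cytokine bound chose these cells by 4 genes of this response, the cells compared had similar Tnf, with a ratio of 1.09 (0.890 to 1.34), by choice. In the cytokine-rich microglia 9 of 14 chemokines were higher, with a median of 0.09.

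Interferon response genes had a median of -0.23, with 11 of 15 lower, and -0.41 without the Gpnmb-holding and Siglech cells. With a cytokine bound of under 2 UMIs the median was 0.10, and in the cytokine-rich microglia 14 of 20 were higher, with a median of 0.13. Of the 4 members with the most UMIs, 3 were higher and 1 lower. Bst2 stood at 968 and 903 CPM (1.07, 1.01 to 1.14), Ifi27l2a at 849 and 722 (1.18, 1.10 to 1.26) and Ifitm3, which blocks virus entry, at 413 and 373 (1.11, 1.01 to 1.22). Slfn2, a Schlafen family gene, stood at 315 and 371 CPM (0.848, 0.765 to 0.939). Irf9, Irf7 (63.3 and 97.8 CPM) and Ifit3 (16.1 and 32.9 CPM) were at least 1.5-fold lower. Of MHC class I genes B2m, the light chain, stood at 3167 and 3733 CPM (0.848, 0.822 to 0.876) and H2-D1 at 3096 and 3144 (0.985, 0.952 to 1.02). Of MHC class II genes Cd74, the invariant chain, stood at 197 and 191 CPM (1.03, 0.900 to 1.18). Counts of MHC genes are uncertain because of near-identical copies.

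Immediate-early genes had 15 of 17 lower and a median of -0.21. Junb stood at 1630 and 2003 CPM (0.814, 0.778 to 0.851), Jun at 646 and 783 (0.825) and Egr1 at 281 and 435 (0.645, 0.582 to 0.715). Rhob, a small GTPase that is also in the homeostatic list, stood at 517 and 798 CPM (0.648, 0.601 to 0.699). Heat shock genes had 9 of 10 lower and a median of -0.26, with Hspa8 at 1441 and 1711 CPM (0.842, 0.803 to 0.883). Hspa1a stood at 93.0 and 149 CPM and its near-identical copy Hspa1b at 20.5 and 62.8, so each is uncertain. Genes of both lists are known to be induced by handling and dissociation of tissue, and whether handling differed between the libraries was not tested.

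Ribosomal protein genes were higher, 18 of 18 with a median of 0.17. Rps24 stood at 4578 and 3910 CPM (1.17, 1.14 to 1.20) and Rpl23 at 4399 and 3863 (1.14, 1.11 to 1.17). They were also higher in 18 of 18 in the cytokine-rich microglia, with a median of 0.22, and in 17 of 18 without the Gpnmb-holding and Siglech cells. Nuclear genes of oxidative phosphorylation had 12 of 16 higher and a median of 0.12, with Cox4i1 at 946 and 860 CPM (1.10, 1.03 to 1.17). Glycolysis genes had a median of 0.00, with Gapdh at 1267 and 1207 CPM (1.05, 0.995 to 1.11). Ferritin light chain, Ftl1, stood at 11049 and 9043 CPM (1.22, 1.20 to 1.24), and 1.07 was its ratio without the Gpnmb-holding and Siglech cells.

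Of the growth and trophic factors 7 of 9 were higher, against 44.3% of all measured genes. Igf1, a growth factor that microglia give to neurons and oligodendrocytes, stood at 163 and 146 CPM (1.11, 0.956 to 1.30). Without the Gpnmb-holding and Siglech cells its ratio was 1.43, and its log2 ratio ran from -0.28 to 1.14 over the 16 alternatives. Vegfa stood at 39.0 and 15.4 CPM (2.53, 1.69 to 3.85), with 41% of its vehicle UMIs in 1 cell. Cdkn1a, which encodes the cell cycle inhibitor p21, stood at 629 and 466 CPM (1.35, 1.25 to 1.47), at 1.499 without the Gpnmb-holding and Siglech cells, and was higher in all 16 alternatives. Of the HDAC3 complex Ncor1 stood at 130 and 119 CPM (1.10, 0.925 to 1.30), and Tbl1xr1 at 28.7 and 44.9 (0.639, 0.458 to 0.886). Of cholesterol synthesis genes 6 of 6 were lower, with Hmgcs1 at 32.6 and 35.0 CPM (0.934, 0.667 to 1.30), and in the cytokine-rich microglia 7 of 8 were higher. Genes induced by the lipid sensors LXR and PPAR, which HDAC3 complexes are known to repress, had 4 of 9 higher. This is near the 44.3% of all measured genes that were higher. The cholesterol exporter Abca1 stood at 222 and 221 CPM (1.005, 0.885 to 1.14) and the lipid droplet coat gene Plin2 at 398 and 314 (1.27, 1.15 to 1.40). Without the Gpnmb-holding and Siglech cells the ratios were 0.969 for Abca1 and 1.05 for Plin2.

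**Figure D5:**
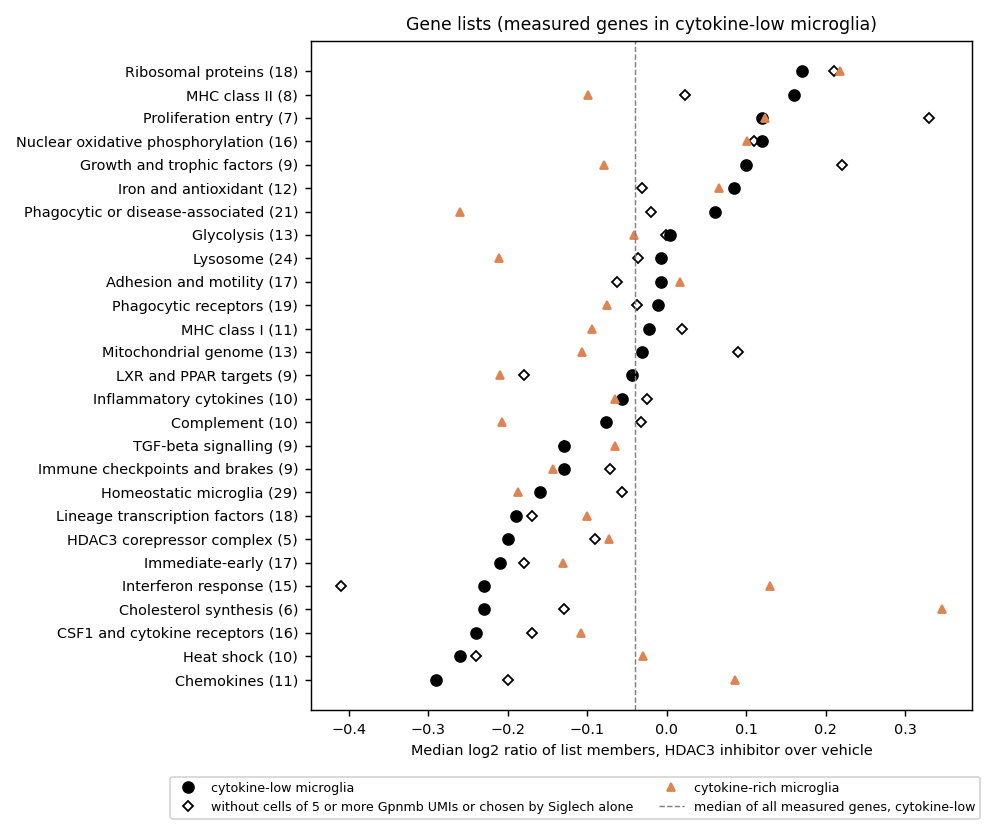
Median log2 ratio, HDAC3 inhibitor library over vehicle library, of the measured genes of 27 lists in cytokine-low microglia (black circles; number of genes in brackets), in the same cells without Gpnmb-holding and Siglech cells (open diamonds) and in cytokine-rich microglia (orange triangles); the dashed line is the median over all measured genes, -0.04. Ribosomal protein genes are above the line in all 3, immediate-early genes below it, and the phagocytic and interferon lists stand on different sides in the microglial states.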

How the data were processed

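Cells of injured mouse spinal cord were measured in 1 library per group. The deposited matrices hold UMI counts per gene and barcode, and the file headers name Cell Ranger 3.0.2. Per the submitters' processing notes the build was mm10 and the tools were Cell Ranger and Seurat. No source used here gives the handling of reads that match several genes, so genes with near-identical copies are uncertain.

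Counts were summed per library and state. The chosen cells held 2053182 and 2403442 UMIs, with a median of 8601 and 9933 per cell, against 12586 and 14205 in cytokine-rich microglia and 24458 and 29861 in Gpnmb macrophages. The 95% intervals are exact Poisson for levels, exact conditional binomial for ratios and Clopper-Pearson for shares. A count of 0 leaves room for 3 UMIs. No test was made. A gene counted as measured from 100 UMIs on, both libraries summed, and the folds used (1.5 between libraries, 2 between states) are sizes, not tests. Doublets were called with Scrublet in scanpy 1.11.5 and kept in the values reported. For spread among cells, each cell was thinned to 3000 UMIs.

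Genes named are those of the rule, the 4 measured genes of each list described with the most UMIs, the 12 widest spread, and the 12 highest and 12 lowest ratios among 2534 genes of at least 50 CPM in the higher library, without mitochondrial, ribosomal, haemoglobin, unnamed and duplicated symbols. The 12 extremes per side between states and Hdac3 were added. Some genes that the rule names are not reported here. From the ranking, 75 genes over 10 times as high in another class of cells were set aside as possible free RNA, 11 and 17 of them past 1.5-fold higher and lower. Exceptions chosen after their values were seen are marked in the text, among them the genes shown for the Gpnmb-holding and Siglech cells. Those cell groups were also defined after the data were seen, and leaving them out, leaving out the cell with most UMIs of a gene, and the state comparison at other settings were added then. The cells and lists were chosen with earlier results of these data known.

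Alternatives were other marker and cytokine bounds, bounds per 10000 UMIs, a stricter cell filter, leaving out called doublets or cells with other types' markers or the deepest 5%, equal weight per cell, thinning, centring on the median gene and other filters on low counts. Coordinates are from GENCODE M21 on mm10, where 30934 of 31053 gene IDs matched. The scripts (numpy 2.4.6, scipy 1.17.1, pandas 2.3.3, matplotlib 3.10.9) were tested on simulated sums with Poisson counting error only. That simulation held no spread among cells, so it does not check the intervals against such spread.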

Additional observations from a re-analysis of the deposited data

Results flagged for a closer look

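The log2 ratio of Gpnmb, HDAC3 inhibitor library over vehicle library, was 0.71 in the cytokine-low microglia and -0.255 in the cytokine-rich microglia, opposite directions in cells of the same libraries. The difference was not tested. Among the barcodes that failed the cell filter, 3 of the HDAC3 inhibitor library and 0 of the vehicle library met the marker, cytokine, cycling and border macrophage bounds, and they were used in no comparison.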

How the results depend on the processing

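No paired analysis was possible because each group has 1 library, and no replicate could be left out. Of the lists, those of immediate-early, heat shock, homeostatic, lineage factor, and CSF1 and cytokine receptor genes had medians below 0 in all 17 alternatives. So did those of TGF-beta, immune checkpoint and HDAC3 complex genes. The median over all measured genes was itself below 0, at -0.04. Some of these lists came as near to 0 as that: HDAC3 complex genes reached -0.015, homeostatic genes -0.024, and TGF-beta and immune checkpoint genes -0.05. Of the HDAC3 complex genes 3 of 5 measured were lower, near the 55.7% of all measured genes. The lists of ribosomal protein and nuclear oxidative phosphorylation genes had medians above 0 in all 17. The ratio of shares was 1.09 without chosen cells holding other types' markers, where all kept cells were still the total. It was below 1 in the other 10 alternatives. Against 74 genes at least 1.5-fold higher there were 148 with a marker bound of 3 UMIs, 49 with one of 10, 114 with no cytokine bound, 47 without cells with other markers, 299 after thinning, 513 with a filter of 20 UMIs and 2343 with no filter. Against 135 lower there were 550, 759 and 2898 under the last 3 settings, where genes of few UMIs enter or UMIs are removed. Against 29 genes lower in cytokine-rich cells there were 9 with bounds per 10000 UMIs.

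The phagocytic median (0.06) was -0.18 with no cytokine bound, 0.20 without cells with other markers and 0.18 after thinning; the interferon median was 0.10 with a cytokine bound of 2; the immediate-early median (-0.21) was -0.63 without cells with other markers and -0.37 after thinning; the ribosomal median (0.17) was 0.26 without cells with other markers. The complement median (-0.08) turned to 0.007 with a marker bound of 10, 0.0036 without Gpnmb-holding cells and 0.018 with cells weighted alike. The MHC class II median (0.16) turned to -0.075 with a marker bound of 10, -0.10 with bounds per 10000 UMIs and -0.051 without cells with other markers. The cholesterol median turned to 0.068 (marker bound of 10) and 0.13 (no cytokine bound) and had no value under 2 alternatives that left none of its genes measured, and the growth factor median to -0.013 (marker bound of 3) and -0.0055 (no cytokine bound).

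The log2 ratio of Csrp2 turned to -0.81 (marker bound of 10), -3.14 (cytokine bound of 2), -0.13 (per 10000 UMIs), -1.66 (other markers), -0.73 (without the deepest 5%) and -0.62 (without the top cell). Thbs1 turned to -0.38 and Ptgs2 to -0.56 with a marker bound of 10, and Ptgs2 also to -0.20 per 10000 UMIs and -0.22 without the deepest 5%. Ckap4 turned to -0.009 with a cytokine bound of 2. S100a10 turned to 0.099 with a marker bound of 10 and 0.078 without the top cell, Sox4 to 0.021 after thinning and Cox6a2 to 0.55 without cells with other markers. The causes were not tested. Depth limits the list values most for genes near 100 UMIs, whose ratio has an interval of about the width of that of Hdac3.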

Other observations

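A few genes of alternative activation and antigen presentation were seen at low levels. Arg1, which breaks down arginine and marks some lesion macrophages, stood at 1.95 and 12.5 CPM in the cytokine-low microglia, and 93.3% of the vehicle UMIs lay in the 19 Gpnmb-holding cells. In the Gpnmb macrophages Arg1 stood at 46.2 and 6.17 CPM, so the library with the higher level was not the same in the 2 groups of cells. H2-Eb1, a chain of MHC class II, stood at 56.5 and 24.1 CPM, with 35% and 34% of its UMIs in 1 cell each. Acta2, an actin of smooth muscle, stood at 80.8 and 1.25 CPM, with 97% of the former in 1 cell. The cycling genes of the rule that remained were Mki67, at 4.38 and 3.33 CPM, and Top2a, at 2.92 and 1.66 CPM.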
